A study of Homo sapiens with 12 samples.

Results

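Interferon-stimulated genes are genes whose transcription rises when a cell senses an interferon. The 49 studied here were a list of symbols that included antiviral enzymes, RNA sensors, the ISG15 system, membrane restriction factors and the transcription factors of the pathway. Each was taken as the row of the raw count table that carried its symbol, and all 49 were found among 44659 rows. A375 cells, an established human melanoma line, had been cultured for 24 h in 4 groups of 3 libraries, all in medium with 10% FBS. The MAPKi cells received 500 nM vemurafenib, a BRAF inhibitor, together with 500 nM cobimetinib, a MEK inhibitor, and were compared with cells given the solvent DMSO. The Gln-depleted cells were kept in a medium without glutamine and were compared with CTRL cells in a medium with 2 mM glutamine. The MAPKi and DMSO cells also had 2 mM glutamine. The 2 comparisons were sequenced in different batches. In the Gln experiment, replicate 1 of each group came from experimental batch 1, and replicates 2 and 3 came from experimental batch 2.

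Type I interferons bind a receptor made of IFNAR1 and IFNAR2, and the kinases JAK1 and TYK2 then phosphorylate STAT proteins, STAT2 among them. STAT2 and IRF9 belong to ISGF3, the complex that binds interferon-stimulated response elements in promoters, whereas gamma-activated sites are bound after type II interferon. Many of these genes also hold a basal level without added interferon, and USP18 and the SOCS proteins restrain the signal.

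The RefSeq promoter table of GRCh38.p14, which spans 250 bases before to 50 bases after each gene start, held 39 of the 49 genes. The letters GAAANNGAA, shared by interferon-stimulated response elements, occurred on either strand in 27 of these 39 promoters (69.2%), compared with 1119 of 15843 protein-coding promoters (7.06%). The letters TTCNNNGAA of a gamma-activated site occurred in 11 of 39 (28.2%), compared with 6.97% of all promoters. The motifs may overlap each other. Sequences are printed for genes whose responses are described at length, from 15 bases before the first match to 15 bases after the last, 5′ to 3′ on the strand of the gene. Capitals mark GAAANNGAA or its reverse complement, and neighbouring matches run together in ISG15.
IFI6 (chr1:27672262-27672363, minus strand): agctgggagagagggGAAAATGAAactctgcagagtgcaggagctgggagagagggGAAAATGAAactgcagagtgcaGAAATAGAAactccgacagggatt
IFITM1 (chr11:313985-314057, plus strand): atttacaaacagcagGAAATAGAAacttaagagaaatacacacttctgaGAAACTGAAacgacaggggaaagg
IFITM3 (chr11:320872-320927, minus strand): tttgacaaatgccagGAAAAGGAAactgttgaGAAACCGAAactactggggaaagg
IFIT1 (chr10:89392493-89392544, plus strand): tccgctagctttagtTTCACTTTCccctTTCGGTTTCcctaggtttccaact
IFIT3 (chr10:89327827-89327899, plus strand): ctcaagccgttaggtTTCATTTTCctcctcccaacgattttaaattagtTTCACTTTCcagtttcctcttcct
ISG15 (chr1:1013369-1013419, plus strand): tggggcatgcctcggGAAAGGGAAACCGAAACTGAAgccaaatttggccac
In IFIT1 and IFIT3 the marked letters are those of the opposite strand. No match lay within the promoter windows of HERC6 and STAT2, and GBP2, OAS2 and USP18 were among the 10 genes not in the promoter table. In the GENCODE v44 annotation of GRCh38, HERC6 spans chr4:88378739-88443097, STAT2 chr12:56341597-56360203, OAS2 chr12:112978395-113011723, OAS3 chr12:112938051-112976460, GBP2 chr1:89106132-89150456 and USP18 chr22:18150118-18177397.

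Between 31056296 and 40071368 reads were counted per library, and values below are counts normalized within each experiment (TMM), given for replicates 1, 2 and 3 in that order. The term rose or fell means an adjusted p of at most 0.05 in edgeR's quasi-likelihood test against no change, and upregulated or downregulated means the same limit in edgeR's test against a 1.5-fold change (0.585 on the log2 scale), both adjusted over all tested protein-coding genes. All 11 tested MAPK pathway targets were downregulated in MAPKi cells, DUSP6 among them with a log2 fold change of -9.54. All 7 tested amino acid response genes rose in Gln-depleted cells, CHAC1 among them with a log2 fold change of 3.29. The melanocyte lineage factor SOX10 was present in every group (means of 14874.7 to 29922.2). The 7 melanoma markers examined summed to 68934.7 to 71724.3 in MAPKi cells and 47115.4 to 49898.1 in DMSO cells; with MAPKi 4 of them were upregulated and S100B was downregulated (-2.13 ± 0.05). They summed to 24533.7 to 27405.5 in Gln-depleted and 38876.6 to 43282.8 in CTRL cells. With Gln depletion MITF was downregulated (-2.38 ± 0.30) and the other 6 were not called, although all 7 log2 fold changes were negative. In a fit with the replicate number as a term, 5 of the 7 fell (71.4%, against 25.0% of all genes). The part of these markers in the results below was not tested. No read was counted on the lymphocyte genes CD3E and MS4A1 in the 12 libraries. The labels number the replicates but do not say that they were separate cultures, so p-values measure the spread between these libraries. In bulk RNA, a change in all cells and a change in the share of cells that express a gene cannot be told apart.

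Interferon-stimulated genes were mostly higher in MAPKi cells than in DMSO cells. Of the 49 genes, 42 passed the limit of a mean normalized count of 10. Of these, 27 rose (64.3%, against 38.9% of the 12594 genes tested) and 5 fell (11.9%, against 39.2%). Upregulated were 19 genes (45.2%, against 17.0%), and downregulated were OAS3 and USP18 (4.76%, against 18.6%). The median log2 fold change was 0.50 over the 42 genes and 0.00 over all genes tested. RSAD2 and BST2 passed the limit through MAPKi cells alone and HERC5, which was not called, through DMSO cells alone. The limit thus selected these 3 genes for a difference between the group means. Of the other 39 genes, 25 rose (64.1%), 5 fell (12.8%) and 17 were upregulated (43.6%). The rows of IFI27, IFI44L, IRF7, IRF9, XAF1, TRIM22 and EPSTI1 were under the limit, and for IRF7 most reads lay on a further row for a copy of the gene. For the alternative fits that follow, the share of all genes called is not given here. With DESeq2 12 genes, and in a fit of all 12 libraries 9 genes, were upregulated. In the latter fit the rises of CMPK2, DHX58, GBP1, IFIT1, IFITM2, OAS1, OASL, SAMD9 and SAMD9L and the falls of IFI35, OAS3 and PARP9 did not pass the test, and with DESeq2 those of CMPK2, DHX58 and GBP1 did not. These 3 rises and that of OAS1 were also lost without MAPKi replicate 2, and those of CMPK2, DHX58 or GBP1 without other single libraries.

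**Figure D1:**
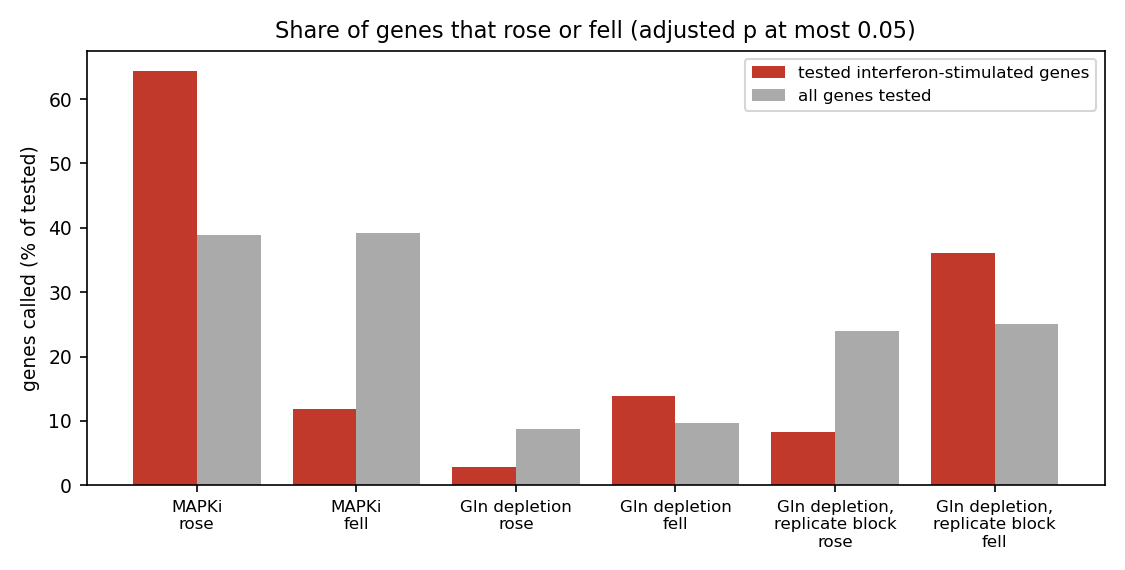
Share of genes that rose or fell, in percent of the genes tested, for interferon-stimulated genes (red bars) and all protein-coding genes tested (grey bars) in the MAPKi experiment, in the Gln experiment, and in the Gln experiment when library pairs were included as a block. With MAPKi, 64.3% of the interferon-stimulated genes rose and 11.9% fell, whereas with Gln depletion 2.78% rose and 13.9% fell, or 8.33% and 36.1% with that block.

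The level of STAT2, the ISGF3 subunit that carries the transactivation domain, was 4634.7, 4653.8 and 4834.9 in MAPKi cells and 2011.2, 1902.7 and 2217.0 in DMSO cells. The groups did not overlap, and STAT2 was upregulated by 1.20 ± 0.06 (log2 fold change ± SE, adjusted p = 2.45e-06 against the 1.5-fold limit). IRF9, the DNA-binding subunit, had 16, 8 and 20 raw reads in MAPKi cells and 3, 2 and 5 in DMSO cells. These counts were too low for the test, and 23.9% of the exon bases of IRF9 are shared with a readthrough gene on the same strand, the part of which in these counts was not tested. SP100, a component of nuclear bodies, was upregulated by 0.85 ± 0.06, whereas the interferon regulatory factor IRF1, which shares 22.9% of its exon bases with an antisense RNA, did not pass the test (0.11 ± 0.10).

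IFIH1, which encodes the double-stranded RNA sensor MDA5, was upregulated in MAPKi cells (0.80 ± 0.06). DHX58, which encodes the related LGP2, rose by 0.26 ± 0.10. RIGI, the third member of this helicase family, was in the list of sensing genes and did not pass the test (-0.09 ± 0.10).

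Of 15 antiviral effectors, 10 rose (66.7%, against 38.9% of all genes) and 2 fell (13.3%, against 39.2%). Of the 15, 6 were upregulated (40.0%, against 17.0%), counting RSAD2, described below. OAS2, a synthetase of 2′-5′-oligoadenylates, was counted at 131.4, 110.2 and 124.6 in MAPKi cells and at 43.0, 26.7 and 39.7 in DMSO cells. The lowest MAPKi library was well above the highest DMSO library, and OAS2 was upregulated by 1.74 ± 0.20 (adjusted p = 0.000308 against the limit). OAS3, a second synthetase of that family, went the other way. Its counts were 1878.6, 1804.3 and 1831.6 in MAPKi cells and 2999.6, 3106.2 and 3143.1 in DMSO cells. The groups were apart, and OAS3 was downregulated (-0.75 ± 0.04, adjusted p = 0.000977), although not in the fit of all 12 libraries. OAS1 rose by 0.30 ± 0.09, and the enzymatically inactive family member OASL was upregulated by 1.29 ± 0.27 at low counts (means of 33.0 and 13.5).

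The IFIT genes, whose proteins bind viral RNA, also differed from each other. IFIT3 had counts of 609.8, 547.6 and 601.7 in MAPKi cells and of 308.7, 327.9 and 355.1 in DMSO cells. It was upregulated by 0.83 ± 0.08 (adjusted p = 0.00551 against the limit) with no overlap between groups. IFIT2 was upregulated by 0.98 ± 0.12, IFIT1 rose by 0.31 ± 0.09, and IFIT5 did not pass the test (-0.01 ± 0.09). RSAD2, which encodes the antiviral enzyme viperin, had means of 38.2 in MAPKi cells and 3.40 in DMSO cells (3.46 ± 0.34 on the log2 scale), and since it passed the count limit through MAPKi cells alone, its call is given as a description. The neighbouring CMPK2, a mitochondrial nucleotide kinase gene that overlaps RSAD2 on the opposite strand over 8.0% of its exon bases, rose by 0.59 ± 0.21. The exonuclease gene ISG20 was upregulated by 0.73 ± 0.06 and the GTPase gene MX2 rose by 0.34 ± 0.04. Its paralogue MX1 had means of 192.8 and 193.5, and the RNA editing enzyme ADAR differed by 0.05 ± 0.04, neither of which passed the test. EIF2AK2, which encodes the kinase PKR, fell by 0.55 on the log2 scale (SE 0.05).

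The ubiquitin-like modifier ISG15 was upregulated by 1.03 ± 0.09, its counts being 909.7, 812.5 and 829.7 in MAPKi cells and 375.3, 462.6 and 408.4 in DMSO cells. HERC6, a HECT-domain ubiquitin ligase gene, was measured at 679.0, 674.5 and 679.5 in MAPKi cells and at 231.2, 239.7 and 280.6 in DMSO cells. The MAPKi libraries hardly varied, all of them lay above the DMSO libraries, and HERC6 was upregulated by 1.43 ± 0.08 (adjusted p = 4.85e-06 against the limit). USP18, the protease that removes ISG15 from proteins and also blocks the type I receptor, changed in the opposite direction. It was counted at 148.4, 160.3 and 185.6 in MAPKi cells and at 309.7, 313.0 and 281.6 in DMSO cells. The groups did not overlap, and USP18 was downregulated (-0.87 ± 0.11, adjusted p = 0.011 against the limit). HERC5, the ligase that attaches ISG15 in human cells, had low means of 8.47 and 14.7 and did not pass the test. The ligase genes DTX3L (-0.13 ± 0.06) and TRIM21 (-0.02 ± 0.16) did not pass it either.

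Of 5 membrane factors, 4 rose (80.0%, against 38.9% of all genes) and 3 were upregulated (60.0%, against 17.0%). Both counts include BST2, which passed the count limit through MAPKi cells alone. IFITM3, which hinders the entry of viruses from endosomes, was counted at 10393.8, 9834.0 and 8962.1 in MAPKi cells and at 3936.3, 3372.7 and 3808.8 in DMSO cells. It was upregulated by 1.39 ± 0.07 (adjusted p = 2.58e-06 against the limit), and the lowest MAPKi library was above the highest DMSO library. IFITM1, a paralogue found at the plasma membrane, had counts of 203.6, 159.2 and 154.6 in MAPKi cells and of 21.5, 21.8 and 35.8 in DMSO cells. The increase was 2.70 ± 0.23 on the log2 scale, or 6.49-fold (adjusted p = 1.52e-05 against the limit), and the groups were far apart. IFITM1 shares 21.1% of its exon bases with an overlapping gene on the same strand. IFITM2 rose by 0.41 ± 0.08, BST2, which encodes the virion-retaining protein tetherin, had means of 21.5 and 7.46 (1.52 ± 0.37), and PLSCR1, a phospholipid scramblase gene, did not pass the test (-0.04 ± 0.05).

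All 3 guanylate-binding protein genes rose, against 38.9% of all genes. GBP2 was counted at 2255.7, 2153.8 and 2006.6 in MAPKi cells and at 890.5, 751.8 and 1048.0 in DMSO cells. The groups were separate, and GBP2 was upregulated by 1.25 ± 0.10 (adjusted p = 8.39e-05 against the limit). GBP3 was upregulated by 1.25 ± 0.32 at lower counts (means of 27.2 and 11.3), and GBP1 rose by 0.30 ± 0.12. The antiviral paralogues SAMD9 and SAMD9L were each upregulated by 0.73 (SE 0.05 and 0.06). Of the ADP-ribosyltransferase genes, PARP14 rose by 0.61 ± 0.05, PARP9 fell (-0.17 ± 0.06), and PARP12 did not pass the test (-0.05 ± 0.07). The fall of PARP9 was lost without MAPKi replicate 2 (-0.17) and without DMSO replicate 3 (-0.10).

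IFI6, which encodes a small membrane protein that limits cell death and viral replication, was counted at 4492.3, 3861.2 and 3615.6 in MAPKi cells and at 1403.5, 1312.4 and 1443.8 in DMSO cells. It was upregulated by 1.52 ± 0.08, or 2.88-fold (adjusted p = 1.86e-06 against the limit), with no overlap. A long non-coding RNA on the same strand shares 23.1% of its exon bases. IFI35 fell (-0.18 ± 0.04), and IFI44 did not pass the test (0.42 ± 0.31). The remaining genes of this group were at or near 0 reads in DMSO cells, with means of 0.371 for IFI27, 6.25 for IFI44L, 1.37 for XAF1 and 3.56 for EPSTI1 in MAPKi cells.

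**Figure D2:**
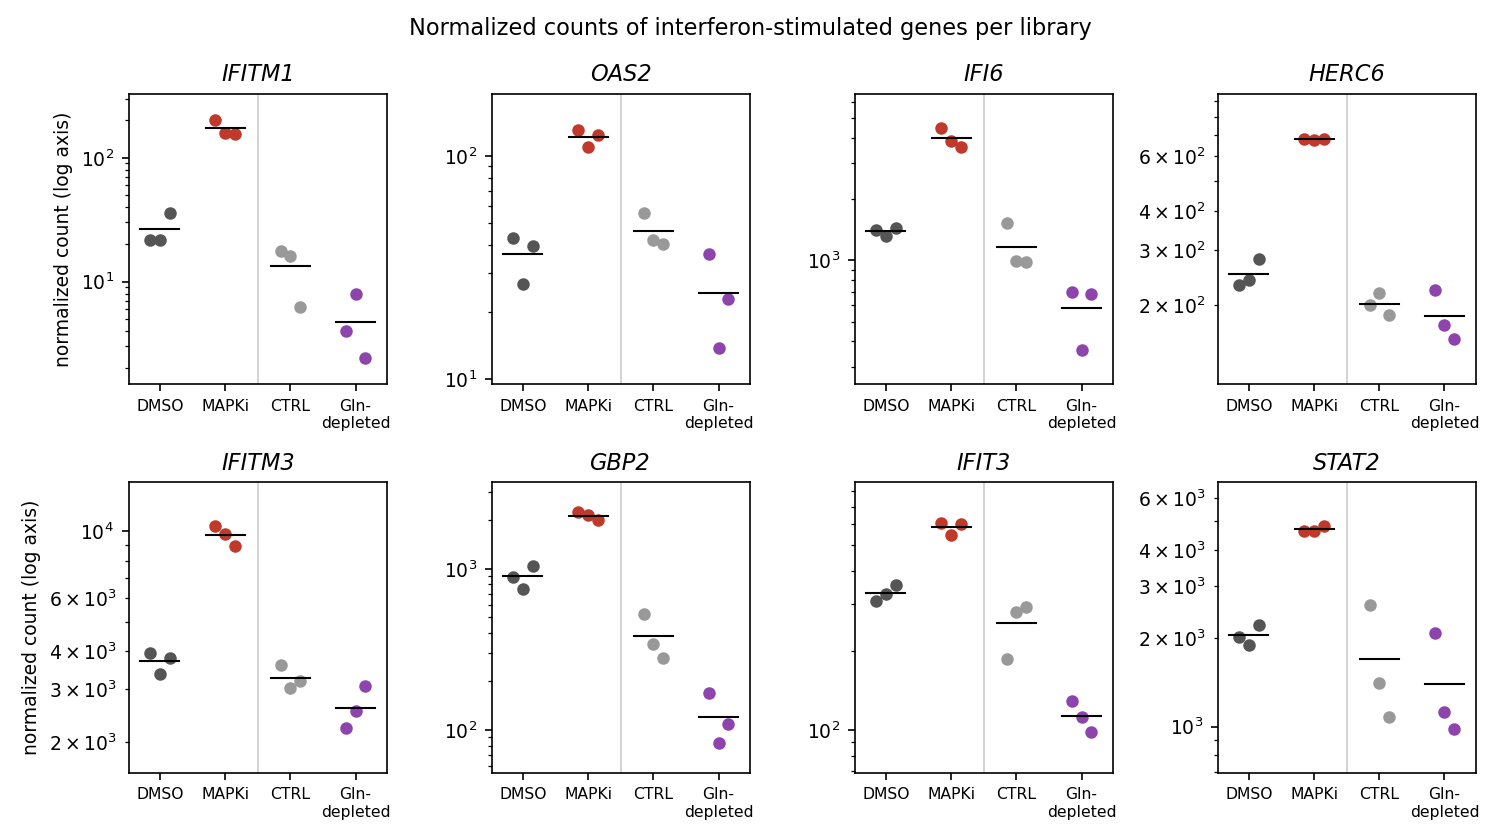
Normalized counts (log axis) of 8 interferon-stimulated genes in each of the 12 libraries, with 1 point per library and a line at the mean of each group of 3. The vertical line separates the experiments, which were normalized separately. The 8 genes were picked among those upregulated with MAPKi. That the MAPKi libraries lie above the DMSO libraries in all 8 panels follows from this choice. In the Gln experiment the groups do not overlap for IFI6, OAS2, GBP2 and IFIT3.

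Gln depletion gave fewer calls than MAPKi, both in the list and among all genes tested. Most of the calls in the list were falls. Of the 36 genes tested, ISG20 rose (2.78%, against 8.79% of the 12512 genes tested) and IFIT1, IFIT3, OAS3, GBP2 and PARP9 fell (13.9%, against 9.64%). The median log2 fold change was -0.30 over the 36 genes and -0.03 over all genes tested, and 27 of the 36 values were negative. None was upregulated or downregulated in edgeR's test against the 1.5-fold limit, compared with 3.19% and 2.39% of all genes. At an unadjusted p under 0.05 this test gave 1 gene upwards and 6 downwards, and DESeq2 called 0 and 1.

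The replicate numbers paired the Gln libraries, and a fit that included the number as a term (the replicate block) gave other counts: 3 genes rose (8.33%, against 24.0% of all genes) and 13 fell (36.1%, against 25.0%). ISG20 was then upregulated (2.78%, against 8.38%), and IFIT1, IFI6, OAS1, OAS3 and GBP2 were downregulated (13.9%, against 8.23%). IRF1 and SAMD9L joined ISG20 among the genes that rose. Those that fell with the block, beside the 5 above, were IFI6, ISG15, MX1, OAS1, OAS2, DHX58, USP18 and PLSCR1. The call of 5 falls without the block rested on single libraries: it was 0 without Gln-depleted replicate 2 or without CTRL replicate 2, 1 without Gln-depleted replicate 3 or without CTRL replicate 3, and 7 without Gln-depleted replicate 1. Within experimental batch 2 alone, 1 gene rose and 7 fell. The share of all genes called is not given here for these fits of fewer libraries. Their counts thus show only how far the calls depend on the libraries.

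The genes that changed in the Gln experiment are described here because they passed the test, a choice made after their values were seen. IFIT1 was counted at 31.6, 14.8 and 3.60 in Gln-depleted cells and at 115.7, 113.4 and 87.7 in CTRL cells. It was lower in all 3 pairs, by -2.63 ± 0.62 on the log2 scale (adjusted p = 0.0253), and by -2.85 ± 0.48 with the block (adjusted p = 0.0024). IFIT3 was at 129.3, 111.8 and 98.3 in Gln-depleted cells and at 186.7, 281.1 and 292.8 in CTRL cells. The groups did not overlap, and IFIT3 fell (-1.16 ± 0.28, adjusted p = 0.027). GBP2 stood at 168.8, 83.1 and 109.1 in Gln-depleted cells and at 527.1, 343.3 and 281.1 in CTRL cells. Each Gln-depleted library was below every CTRL library, and GBP2 fell by 1.67 on the log2 scale (SE 0.36, adjusted p = 0.0192; 0.000706 with the block).

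OAS3 was counted at 2149.7, 1011.7 and 1021.2 in Gln-depleted cells and at 4623.5, 3042.5 and 2645.8 in CTRL cells. Replicate 1 was the highest of each group, the groups did not overlap, and OAS3 fell (-1.30 ± 0.36, adjusted p = 0.0415; 0.000319 with the block). PARP9 was counted at 1682.9, 1698.0 and 1632.5 in Gln-depleted cells and at 2775.6, 3091.6 and 2635.0 in CTRL cells, and fell (-0.76 ± 0.16, adjusted p = 0.0191). ISG20 was counted at 1437.1, 1586.3 and 1380.8 in Gln-depleted cells and at 548.5, 654.5 and 790.6 in CTRL cells. All Gln-depleted libraries were above the CTRL libraries, and ISG20 rose by 1.14 ± 0.20 (adjusted p = 0.00964). Of the 36 genes of the list tested in both experiments, ISG20 alone rose in both, as did 509 of all 12291 genes so tested. OAS3 and PARP9 fell in both, as did 725 of all genes. With the block in the Gln fit, SAMD9L also rose in both (0.57 ± 0.20 with Gln depletion, adjusted p = 0.0429) and USP18 also fell in both. Of all genes, 1356 then rose in both and 1728 fell in both.

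Among the other genes, IFI6 was counted at 698.8, 362.0 and 685.6 in Gln-depleted cells and at 1524.0, 993.7 and 986.7 in CTRL cells. The groups were apart, but the difference passed the test with the block (-1.03 ± 0.19, adjusted p = 0.00372) and not without it (-1.01 ± 0.31, adjusted p = 0.0577). OAS1 behaved in the same manner, at -1.49 ± 0.25 with the block (adjusted p = 0.00238) and -1.40 ± 0.44 without it (adjusted p = 0.0629). OAS2 was at 36.5, 13.8 and 22.8 in Gln-depleted cells and at 55.4, 42.2 and 40.3 in CTRL cells, a difference of -0.91 ± 0.42 (adjusted p = 0.167) that passed with the block (-0.98 ± 0.35, adjusted p = 0.0499). IFITM3 was at 2220.8, 2528.8 and 3060.0 in Gln-depleted cells and at 3610.1, 3021.4 and 3178.5 in CTRL cells. Its groups overlapped, although it was lower in all 3 pairs. The difference passed the test neither without the block (-0.33 ± 0.19) nor with it (-0.34 ± 0.15, adjusted p = 0.0908). HERC6, at 223.1, 172.1 and 155.8 against 200.3, 218.8 and 185.3, did not pass the test either (-0.13 ± 0.25). USP18, at 308.9, 219.5 and 232.5 against 460.0, 316.2 and 294.6, was lower in all 3 pairs and passed with the block (-0.48 ± 0.17, adjusted p = 0.0439) but not without it (-0.49 ± 0.27, adjusted p = 0.225).

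Neither STAT2 nor IRF9 was called in Gln-depleted cells. STAT2 was counted at 2088.5, 1120.5 and 980.4 in Gln-depleted cells and at 2591.8, 1412.3 and 1077.1 in CTRL cells. Replicate 1 was above the others in both groups, and the groups overlapped (-0.28 ± 0.40). STAT2 was lower in all 3 pairs but did not pass the test with the block either (-0.26 ± 0.11, adjusted p = 0.0924). IRF9 had 8, 1 and 2 raw reads against 14, 13 and 6. IFITM1, at 3.95, 7.91 and 2.40 against 17.5, 16.1 and 6.27, was too low to be tested in this experiment, as were RSAD2, OASL, BST2, HERC5, TRIM22, IRF7 and 5 of the 7 genes grouped with IFI6.

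**Figure D3:**
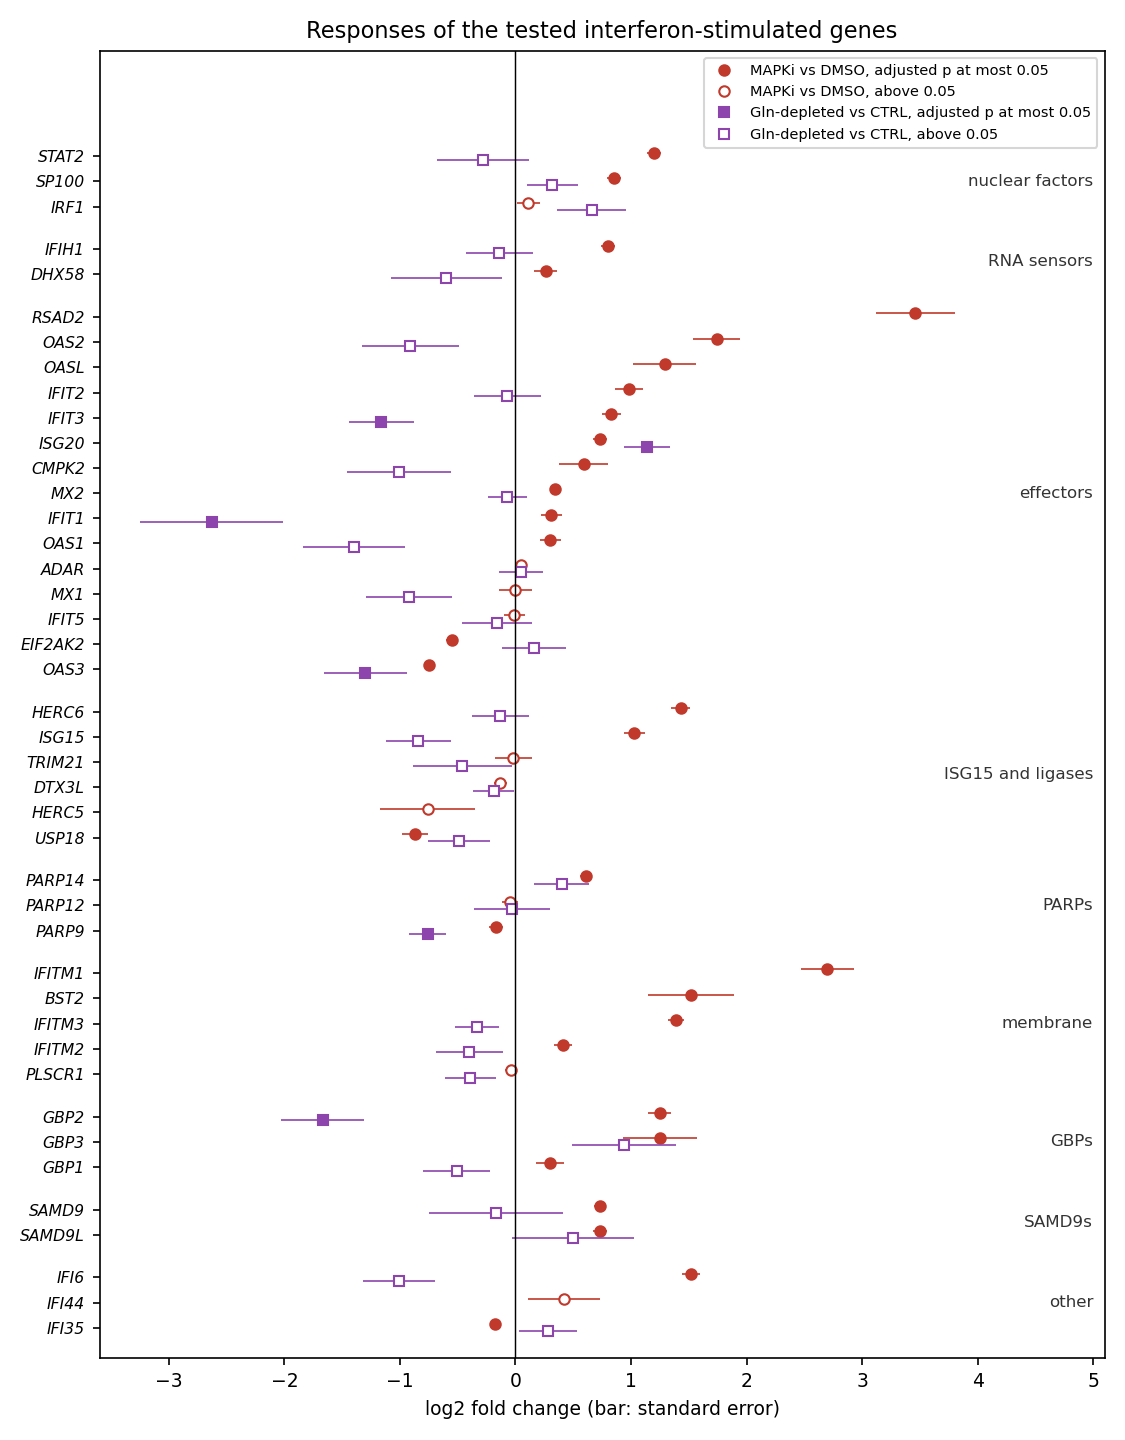
Log2 fold changes of the interferon-stimulated genes tested, with standard errors as bars, for MAPKi against DMSO (red circles) and Gln-depleted against CTRL cells (purple squares, without the replicate block), ordered by role. Filled symbols have an adjusted p of at most 0.05; 32 of the 42 circles and 6 of the 36 squares are filled, and the filled squares other than ISG20 lie left of 0.

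The responses in the 2 experiments were compared as the contrast of both fold changes over the 12 libraries, in which each treated group is set against the control of its own sequencing batch. Of 40 genes tested, the response was higher with MAPKi than with Gln depletion for 19 (47.5%, against 19.6% of the 12627 genes tested) and lower for 0 (against 20.9%). At an unadjusted p under 0.05, 2 genes were lower by edgeR, and DESeq2 called 1. With the replicate block 24 genes were higher (against 29.0% of all genes) and 2 were lower, IFI35 and EIF2AK2 (against 32.1%). The block added DHX58 (0.91 ± 0.19, adjusted p = 0.00382), SAMD9 (0.80 ± 0.25, adjusted p = 0.0242), IFITM2 (0.90 ± 0.26, adjusted p = 0.0164), PLSCR1 (0.39 ± 0.15, adjusted p = 0.0489) and OAS3 (0.62 ± 0.13, adjusted p = 0.00323) to those that were higher. The smallest adjusted p-values belonged to IFITM3 (1.74 ± 0.20, adjusted p = 5.09e-05), IFIT3 (2.00 ± 0.25, adjusted p = 7.74e-05), GBP2 (2.94 ± 0.40, adjusted p = 0.000157), IFI6 (2.55 ± 0.37, adjusted p = 0.000219) and HERC6 (1.58 ± 0.23, adjusted p = 0.00023), each value being a difference of log2 fold changes with its SE. IFIT1, IFIT3 and GBP2 rose with MAPKi and fell with Gln depletion, as did 334 of the 12291 genes tested in both experiments. With the block in the Gln fit these were 8 genes, IFI6, ISG15, OAS1, OAS2 and DHX58 in addition, and 910 of all genes. For ISG20 the difference of -0.40 ± 0.18 did not pass the test (adjusted p = 0.0994), nor did that for OAS3 without the block (0.57 ± 0.41, adjusted p = 0.299). The 2 treatments and the sequencing batches go together, so levels were not compared across experiments.

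Levels were set per length within a group as RPKM (reads per kilobase of exon, scaled to the library total). In DMSO cells the highest were IFI35 (47.7 ± 0.907, SD, n = 3), IFI6 (42.4 ± 1.68), IFITM2 (39.3 ± 3.96), IFITM3 (37.3 ± 2.76) and ADAR (27.9 ± 0.740). The range of IFITM2 overlapped those of IFI6 and IFITM3, whereas IFI35 lay above the other genes in all 3 libraries. The order depends on the length used, since IFITM3 came first with 174 by its canonical transcript. In MAPKi cells IFI6 (122 ± 11.1) and IFITM3 (97.6 ± 5.66) came first, followed by IFITM2 (52.0 ± 2.82). Many genes of the list stayed low: 21 were below 1 in DMSO cells and 18 in MAPKi cells, 22 in CTRL cells and 26 in Gln-depleted cells. RSAD2, for example, reached 0.193 ± 0.00551 in MAPKi cells.

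Genes with and without the promoter motif rose. Of the 24 tested genes with GAAANNGAA in the promoter window, 14 rose (58.3%) and 2 fell (8.33%) with MAPKi. Of the 10 tested genes without it, 6 rose (60.0%) and 2 fell (20.0%). Among all genes 38.9% rose and 39.2% fell. The median log2 fold changes were 0.51 with the motif and 0.44 without it. In the Gln experiment the medians were -0.33 over 19 genes with the motif and -0.04 over 10 genes without it.

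No expression of interferon genes was detectable at this depth. Of 22 ligand genes of types I, II and III, 18 had no read in any of the 12 libraries, and the other 4 never had more than 1 read in a library. No read on a ligand gene was counted in the MAPKi libraries. A count of 0 allows up to 3 reads per library, and this limit covers counting error only.

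Of the 5 receptor genes tested, 3 rose with MAPKi (60.0%, against 38.9% of all genes) and 1 fell (20.0%, against 39.2%). IL10RB, the shared chain of the type III receptor, was upregulated (0.81 ± 0.07), whereas IFNGR2, a chain of the type II receptor, was downregulated (-1.49 ± 0.12). IFNLR1, the other chain of the type III receptor, had 0 reads in the 12 libraries and was not tested. IFNAR1 rose by 0.69 ± 0.08. Of 7 JAK and STAT genes, 5 rose (71.4%, against 38.9%) and TYK2 fell (-0.28 ± 0.04, 14.3%, against 39.2%). STAT3 (1.02 ± 0.06) and STAT6 (1.24 ± 0.04) were upregulated (28.6%, against 17.0%). Of 11 negative regulators, 3 rose (27.3%) and 4 fell (36.4%), shares below the 38.9% and 39.2% of all genes, with CISH, a feedback inhibitor of STAT5, upregulated (1.82 ± 0.14) and PIAS3, an inhibitor of STAT3, downregulated (-0.80 ± 0.05). Of the 12 receptor, JAK and STAT genes tested in the Gln experiment, 0 passed edgeR's test without the block. Of all genes, 8.79% rose and 9.64% fell in that fit. At an unadjusted p under 0.05, 4 of the 12 passed, and DESeq2 called 1. With the block 2 of 5 receptor genes rose (40.0%, against 24.0% of all genes). In that fit 4 of 7 JAK or STAT genes fell (57.1%, against 25.0%). CISH (-1.12 ± 0.31, adjusted p = 0.0414) and SOCS3 (-1.27 ± 0.32, adjusted p = 0.0298) fell with Gln depletion.

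Of 5 tested interferon regulatory factor genes, IRF4, a lymphoid and melanocyte factor, showed the largest change. It was counted at 875.6, 797.0 and 795.2 in MAPKi cells and at 33.3, 22.8 and 48.4 in DMSO cells. The groups were more than an order of magnitude apart, and IRF4 was upregulated by 4.55 ± 0.19 (adjusted p = 7.94e-08 against the limit). IRF3 fell (-0.31 ± 0.05). The melanocyte genes MITF (0.78 ± 0.04), PMEL (2.91 ± 0.17), MLANA (2.62 ± 0.20) and TYR (1.61 ± 0.30) were upregulated in the same libraries, S100B was downregulated, and their part in the result for IRF4 was not tested.

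Of 11 genes of nucleic acid sensing, 5 rose (45.5%) and 4 fell (36.4%) with MAPKi, against 38.9% and 39.2% of all genes. All 5 that rose were upregulated (against 17.0% of all genes), among them the adaptor MAVS (1.29 ± 0.04), the endosomal RNA receptor TLR3 (1.55 ± 0.10), the DNA sensor AIM2 (0.89 ± 0.10) and the ubiquitin ligase TRIM25 (0.69 ± 0.04). The signalling adaptor TRAF3 was downregulated (-1.10 ± 0.04), and IFI16 (-0.55 ± 0.07), TICAM1 (-0.48 ± 0.08) and TBK1 (-0.23 ± 0.05) fell. With Gln depletion TRIM25 rose (1.55 ± 0.42) and IKBKE fell (-0.77 ± 0.21).

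Of 8 antigen presentation genes tested, 5 rose with MAPKi (62.5%, against 38.9% of all genes) and PSME2 fell (-0.82 ± 0.22; 12.5%, against 39.2%). All 5 that rose were upregulated (against 17.0% of all genes). They include a gene, not reported here, that passed the count limit through MAPKi cells alone. The others were the transactivators NLRC5 (1.43 ± 0.07) and CIITA (1.36 ± 0.06), the immunoproteasome subunit PSMB10 (1.05 ± 0.06) and the light chain B2M (0.94 ± 0.17). Genes of this list with most of their reads on further rows for copies included HLA-B, HLA-C, HLA-E, HLA-F, TAP1, TAP2, TAPBP, PSMB8 and PSMB9. Their own rows give no measure of these genes. Among the 49 genes, IRF7 (248 reads on a copy), IRF9 (1 read) and IFI27 (0 reads) have a further row.

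Of 25 further interferon-stimulated genes tested, 17 rose with MAPKi (68.0%, against 38.9% of all genes) and 5 fell (20.0%, against 39.2%). Of these, 11 were upregulated (17.0% of all genes were) and 4 downregulated (16.0%, against 18.6%). The upregulated genes were TYMP (1.81 ± 0.28), LGALS3BP (1.38 ± 0.10), TMEM140 (1.31 ± 0.06), SLFN5 (1.14 ± 0.07), DDX60L (1.11 ± 0.10), TRIM14 (1.08 ± 0.05), DDX60 (0.82 ± 0.08), APOL6 (0.82 ± 0.09), SHFL (0.77 ± 0.08), SP140L (0.74 ± 0.07) and CNP (0.69 ± 0.04). Downregulated were SLFN11 (-1.65 ± 0.07), TDRD7 (-1.03 ± 0.06), IFI30 (-1.01 ± 0.06) and PNPT1 (-0.81 ± 0.06). With Gln depletion, 5 of 24 rose (20.8%, against 8.79% of all genes) and 4 fell (16.7%, against 9.64%). SLFN5 was upregulated (1.95 ± 0.37; 4.17%, against 3.19%). IFI30 (-1.75 ± 0.29) and TDRD7 (-1.47 ± 0.27) were downregulated (8.33%, against 2.39%). With the block 7 rose (29.2%, against 24.0%) and 13 fell (54.2%, against 25.0%).

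**Figure D4:**
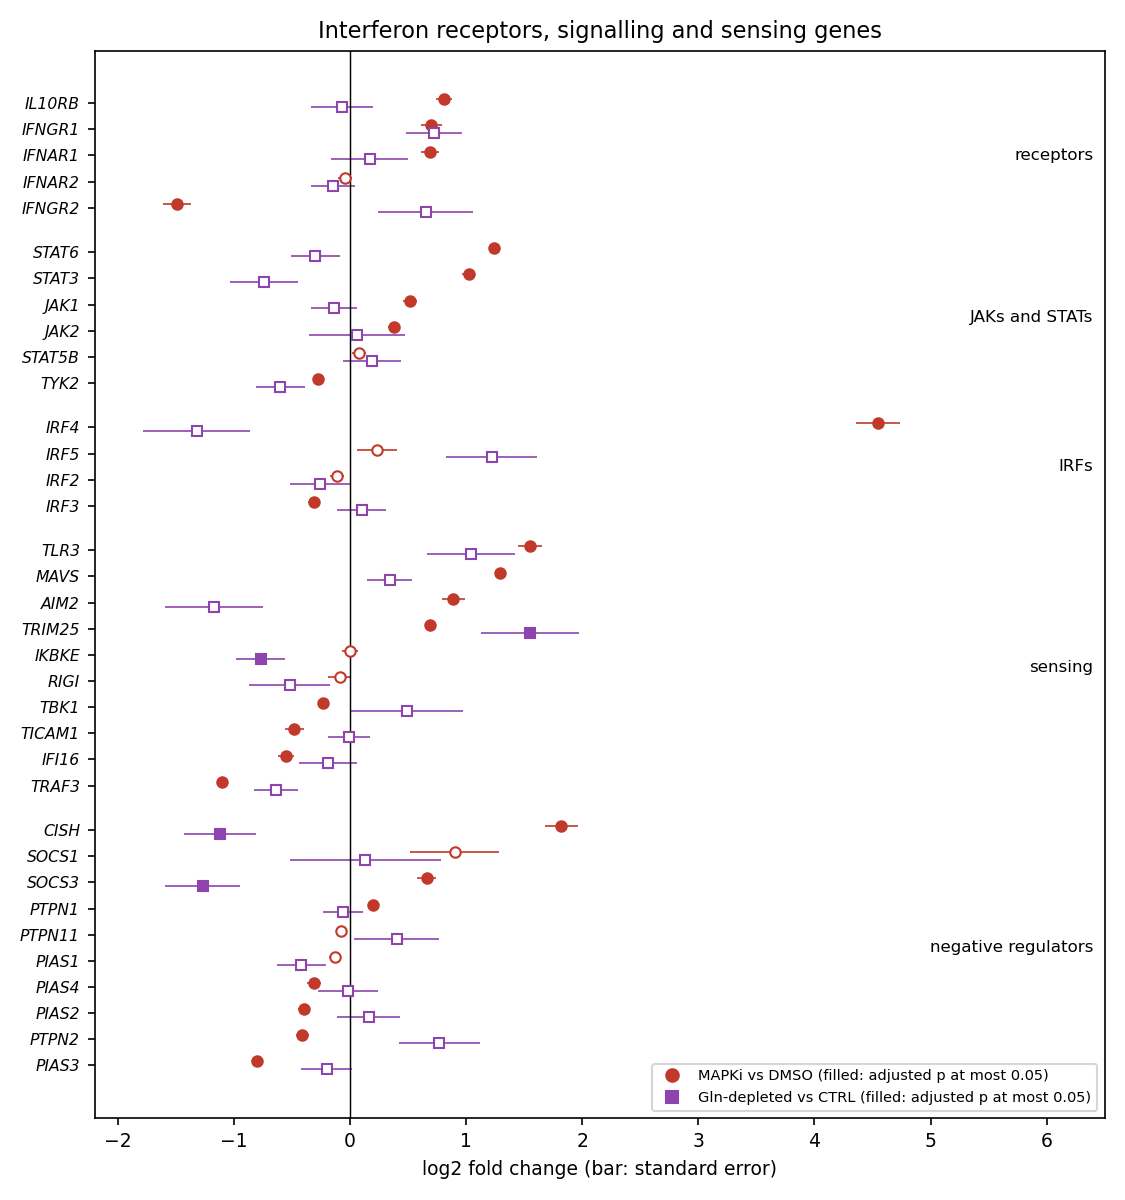
Log2 fold changes of tested receptor, JAK and STAT, interferon regulatory factor, sensing and negative regulator genes, with standard errors as bars, for MAPKi against DMSO (red circles) and Gln-depleted against CTRL cells (purple squares, without the replicate block). Filled symbols have an adjusted p of at most 0.05, and IRF4 lies farthest to the right at 4.55.

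Markers of other cell types were examined beside these counts. Of 7 leukocyte markers, 3 were tested with MAPKi, and CD68, a lysosomal protein gene also expressed outside macrophages, was upregulated (2.73 ± 0.06, means of 13995.0 and 2103.5). Without CD68, the summed normalized count of the other 6 markers was 37.1 to 51.2 in MAPKi cells and 65.4 to 68.9 in DMSO cells, and it was 27.7 to 73.0 in Gln-depleted and 50.6 to 73.3 in CTRL cells. PTPRC, which marks all leukocytes, had means of 4.45 in MAPKi and 15.6 in DMSO cells (-1.81 ± 0.43). It passed the count limit through DMSO cells alone, so its call is given as a description. The 6 endothelial, fibroblast and epithelial markers summed to 671 to 786 in MAPKi cells and 755 to 944 in DMSO cells, with VWF upregulated and LUM lower, and to 266 to 316 in Gln-depleted and 514 to 882 in CTRL cells.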

How the data were processed

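RNA-seq was performed on 12 rRNA-depleted libraries of A375 cells. The labels describe RNA of a cytoplasmic fraction and the methods of the paper total RNA. The authors trimmed reads with fastp 0.20.1, aligned them to GRCh38.p13 with HISAT2 2.2.1 and counted reads on exons with htseq-count 0.13.5; the deposited values are raw counts per gene symbol. Whether counting used strand is not given in the sources used here, so overlapping and antisense genes may share reads. The 49 genes, the other lists and the tests were chosen with earlier results of these data known.

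Symbols were matched to RefSeq (36524 by symbol, 513 by an older symbol), and 5082 rows were further copies of a gene, kept apart. Protein-coding genes with a mean TMM-normalized count of at least 10 were fitted per experiment with edgeR 4.0.16 in R 4.3.3 (quasi-likelihood, treatment as the only term, Benjamini-Hochberg adjustment over all genes tested), and the difference between experiments over 12 libraries. DESeq2 (1.42.0 here; the authors used DESeq2 too, in another version) was an alternative, beside its size factors, other count limits, all genes, a fit of 12 libraries, stricter thresholds, the experimental batch, the replicate block and each library left out. Full values are given for the 5 largest rises and falls past the 1.5-fold test with a mean count of at least 50, for the 5 smallest adjusted p of the difference, for members past that test in opposite directions (0 genes), and for STAT2 and IRF9; members of other lists are named where they passed the 1.5-fold test. Some genes of these lists are not reported here. Procedures were tested on simulated data. Counts this high leave the spread between replicates as the limit on precision, other than for genes of few reads. Lengths and overlaps came from GENCODE v44 and promoters from RefSeq (GRCh38.p14). Tables and plots were made in Python 3.11.15 with pandas 2.3.3, numpy 2.4.6 and matplotlib 3.10.9.

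The deviations of libraries from their group means correlated across genes with r = 0.585, 0.44 and 0.386 between Gln-depleted and CTRL libraries of the same number, so the effect of the replicate block on calls is given beside the results.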

Additional observations from a re-analysis of the deposited data

Results flagged for a closer look

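The responses of 19 interferon-stimulated genes differed between MAPKi treatment and Gln depletion in edgeR's contrast over the 12 libraries (adjusted p of at most 0.05), all of them being higher with MAPKi. As differences of log2 fold changes these were 4.14 for IFITM1, 2.98 for OASL, 2.94 for GBP2, 2.94 for IFIT1, 2.66 for OAS2, 2.55 for IFI6, 2.00 for IFIT3, 1.89 for ISG15, 1.74 for IFITM3, 1.71 for OAS1, 1.60 for CMPK2, 1.58 for HERC6 and 1.5 for STAT2. Smaller differences were found for IFIT2 (1.06), IFIH1 (0.95), GBP1 (0.83), PARP9 (0.60), SP100 (0.55) and MX2 (0.42). IFITM1 and OASL were under the count limit in the Gln experiment, with means of 4.75 and 13.3 for IFITM1 and of 3.10 and 10.4 for OASL in Gln-depleted and CTRL cells. PARP9 fell in both experiments, and less with MAPKi. The difference for STAT2 was lost without DMSO replicate 1 (1.49) or 2 (1.45) and without Gln-depleted replicate 2 (1.34) or 3 (1.29), and was 1.48 ± 0.10 with the replicate block (adjusted p = 1.25e-05). Those for CMPK2, OASL, GBP1, MX2 and SP100 were likewise lost without single libraries. The experiments differ in treatment and sequencing batch, which cannot be told apart.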

How the results depend on the processing

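Shares of all genes called also move with the setting, and are given here only for the main fits and the replicate block. Counts under other settings therefore show how far the calls depend on processing, not how the listed genes compare with all genes. With MAPKi the count of 27 genes that rose stayed between 18 and 28 under every alternative. The 5 falls became 2 in a fit of 12 libraries, the 19 upregulated genes became 12 with DESeq2, 9 in a fit of 12 libraries and 8 at a log2 limit of 1, and the 2 downregulated became 1 with DESeq2, 0 in a fit of 12 libraries, 0 at a log2 limit of 1 and 1 at an adjusted p of 0.01. With each library left out, 23 to 26 rose, 4 to 6 fell and 15 to 19 were upregulated. The same-numbered MAPKi and DMSO libraries correlated with r = 0.069, 0.058 and 0.056, under the limit for pairing although each was highest with its own number. With the replicate block 25 rose and 6 fell, while 39.9% of all genes rose and 40.0% fell.

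With Gln depletion the single rise became 3 with the replicate block, 2 in a fit of 12 libraries and 2 with experimental batch as a term. The 5 falls became 8 with DESeq2, 13 with the block, 10 in a fit of 12 libraries, 12 with the batch term and 0 at an adjusted p of 0.01. Against 0 upregulated genes, 1 was found with DESeq2 size factors, 1 with the block, 1 in a fit of 12 libraries and 1 with the batch term, and against 0 downregulated genes, 1 with DESeq2, 5 with the block, 4 in a fit of 12 libraries, 5 in experimental batch 2 alone and 4 with the batch term. Leaving out libraries gave 0 to 7 falls and 0 to 4 downregulated genes. The other pathway lists went from 6 rises and 7 falls to 16 and 26 of 69 genes with the block (from 8.70% and 10.1% to 23.2% and 37.7%, against 24.0% and 25.0% of all genes). The difference between experiments had 13 to 21 genes higher and 0 to 1 lower with libraries left out, and 2 lower with the block and 1 with DESeq2. By canonical transcript the levels in DMSO cells were 79.0 for IFI35, 48.9 for IFI6 and 62.8 for IFITM2. The causes were not tested.

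Signs turned for values near 0 that were not called. These were IFIT5 (0.01, all genes) and MX1 (0.0 with DESeq2, 0.01 with all genes) with MAPKi, PARP12 with Gln depletion (0.02 with DESeq2 size factors, 0.02 with DESeq2, 0.03 with all genes), and the difference for PARP12 (0.08 with the block) and ADAR (-0.0 with DESeq2 size factors). With libraries left out, the MAPKi log2 fold changes ranged from -0.11 to 0.07 for IFIT5, -0.15 to 0.09 for MX1 and -0.15 to 0.16 for TRIM21. Those of Gln depletion ranged from -0.17 to 0.04 for IFIT2, -0.38 to 0.07 for IFIT5, -0.32 to 0.13 for IFIH1, -0.69 to 0.22 for STAT2, -0.50 to 0.20 for PARP12, -0.63 to 0.17 for SAMD9, -0.07 to 0.21 for ADAR and -0.01 to 0.37 for EIF2AK2. The differences ranged from -0.04 to 0.40 for IFIT5, -0.19 to 0.64 for IFI44, -0.25 to 0.49 for PARP12, -0.03 to 0.13 for DTX3L, -0.06 to 0.62 for SAMD9L and -0.13 to 0.16 for ADAR. Depth limits the genes under the count limit, RSAD2 and BST2 in the Gln experiment and IRF9 in both among them.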
